A study of Mus musculus with 2 samples.

Results

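The 49 genes described here encode the proteins that license origins of replication, fire them and copy DNA at the fork, together with enzymes that supply deoxynucleotides and the pair that copies DNA methylation. They were matched by symbol among probe sets annotated to a single gene, and all 49 were found among the 19751 named genes of the array. The series holds 2 microarrays of 1 group, named replicate 1 and replicate 2 as in their titles. The RNA came from fibroblastic reticular cells (FRCs), the stromal fibroblasts of lymph nodes, which were expanded in culture from C57BL6/J mice of 4 to 6 weeks of age that had received no treatment. The cultures, started from the stromal cells of whole lymph nodes, ran for 7 to 10 days in a medium with 10% fetal calf serum, and the source label calls the cells purified without giving the step. The labels leave unsaid whether the arrays stand for separate animals or separate cultures, and part of the spread may be technical. No second condition, tissue or fresh cell sample enters, and the values describe cells that had been growing in serum.

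A replication origin is licensed in G1 phase, when the origin recognition complex (ORC) with Cdc6 and Cdt1 places hexamers of Mcm2 to Mcm7 on DNA, and geminin (Gmnn) later holds Cdt1 so that no origin is loaded again in the same cycle. At the start of S phase the kinase Cdc7 with its activator Dbf4, helped by Mcm10, allows Cdc45 and GINS to join the hexamer and form the active helicase. Behind it DNA polymerase alpha with primase lays down primers, polymerases epsilon and delta extend them on the clamp PCNA, which the RFC complex loads, and RPA covers exposed strands. Many of these genes are transcribed in late G1 under E2F factors, and fibroblasts in culture are known to express them while they divide.

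Promoter sequences are shown first, and the choice of genes did not use their letters. Many of these genes are known to be under E2F factors, so the share with E2F words is not an independent finding. In the RefSeq promoter windows of GRCm38.p6, which reach from 250 bases before a start to 50 after it, 41 of the 49 genes had 53 windows. An E2F word, here TTTCCCGC or TTTGGCGC or TTTGCCGC or TTTCGCGC on either strand, was found in windows of 17 of the 41 genes (41.5%), against 704 of all 27025 genes in the table (2.6%). By window the shares were 32.1% and 2.26%. CCAAT, the word read by the factor NF-Y, was found on either strand in 25 of the 41 genes (61.0%) and in 41.1% of all genes. TTTGAA, the core of the CHR element known from mitotic promoters, was found in 8 of the 41 (19.5%) and in 20.2% of all genes. The mitotic genes listed for comparison, of which 20 had a window, held TTTGAA in 14 (70.0%), an E2F word in 1 (5.0%) and CCAAT in 17 (85.0%), so CCAAT was more frequent there than in the replication genes. Each word was searched separately, also where its letters overlap another word, and a match is a description of the letters and not evidence of binding.

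The 6 windows below are the promoters of the 3 genes with the largest and the 2 with the smallest difference between the arrays, among those above background on both arrays and with a window, and of Mcm6, which had the most E2F words in a window and was added after its values were seen. Each is written 5′ to 3′ on the strand of its gene, with E2F and CCAAT words in capitals. Tyms lies on the minus strand (chr5:30073576-30073875), Prim1 on the plus strand (chr10:128014965-128015264), Orc1 on the plus strand (chr4:108579204-108579503), Pole2 on the minus strand (chr12:69228141-69228440), Rfc3 on the minus strand (chr5:151651159-151651458) and Mcm6 on the minus strand (chr1:128359656-128359955).
Tyms: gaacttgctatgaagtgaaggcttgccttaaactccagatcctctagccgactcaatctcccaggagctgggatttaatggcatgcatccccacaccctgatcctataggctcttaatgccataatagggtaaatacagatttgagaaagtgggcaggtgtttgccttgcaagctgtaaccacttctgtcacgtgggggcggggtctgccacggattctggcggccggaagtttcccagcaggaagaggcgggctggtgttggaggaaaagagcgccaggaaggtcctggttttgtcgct
Prim1: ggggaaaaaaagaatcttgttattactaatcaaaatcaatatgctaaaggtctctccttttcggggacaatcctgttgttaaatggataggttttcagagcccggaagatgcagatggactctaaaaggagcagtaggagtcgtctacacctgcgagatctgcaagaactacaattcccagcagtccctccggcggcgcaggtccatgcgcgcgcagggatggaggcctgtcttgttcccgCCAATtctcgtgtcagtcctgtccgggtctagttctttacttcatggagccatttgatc
Orc1: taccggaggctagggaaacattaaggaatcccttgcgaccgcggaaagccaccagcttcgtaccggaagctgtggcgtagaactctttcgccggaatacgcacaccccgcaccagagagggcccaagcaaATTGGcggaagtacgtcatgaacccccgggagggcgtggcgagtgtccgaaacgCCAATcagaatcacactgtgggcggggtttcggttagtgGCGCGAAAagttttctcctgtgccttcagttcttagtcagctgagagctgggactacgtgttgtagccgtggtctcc
Pole2: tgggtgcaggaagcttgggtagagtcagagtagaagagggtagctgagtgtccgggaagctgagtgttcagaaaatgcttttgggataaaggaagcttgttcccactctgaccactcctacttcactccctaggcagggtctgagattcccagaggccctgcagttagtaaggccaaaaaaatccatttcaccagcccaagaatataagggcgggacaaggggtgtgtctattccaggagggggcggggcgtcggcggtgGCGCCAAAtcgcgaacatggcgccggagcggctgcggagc
Rfc3: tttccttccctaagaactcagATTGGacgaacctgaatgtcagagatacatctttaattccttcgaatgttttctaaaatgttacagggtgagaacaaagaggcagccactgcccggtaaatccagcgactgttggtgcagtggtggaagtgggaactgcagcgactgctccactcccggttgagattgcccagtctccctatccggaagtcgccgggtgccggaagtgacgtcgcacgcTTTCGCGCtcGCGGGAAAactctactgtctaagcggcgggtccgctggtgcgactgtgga
Mcm6: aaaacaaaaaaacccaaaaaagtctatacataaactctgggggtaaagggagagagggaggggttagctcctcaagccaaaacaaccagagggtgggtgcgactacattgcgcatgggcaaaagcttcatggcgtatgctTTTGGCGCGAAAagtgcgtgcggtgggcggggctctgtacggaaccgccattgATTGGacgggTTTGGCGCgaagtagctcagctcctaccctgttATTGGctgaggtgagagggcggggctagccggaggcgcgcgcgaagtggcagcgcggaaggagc

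Of the 3 genes that differed most, Orc1 has an E2F word, which begins 27 bases before the start, and Tyms and Prim1 have none in this window. Both genes that differed least have such words, Pole2 beginning 10 bases after its start and Rfc3 beginning 10 bases before the start and at it. Mcm6 has 3 E2F words, and the pair that begin 110 and 106 bases before the start overlap in a palindrome. Among genes with a window and above the level filter described next, the 17 with an E2F word had a median difference of -0.29 between the arrays and the 24 without one had -0.27. The ranges overlapped, from -0.59 to 0.15 with an E2F word and from -0.69 to 0.38 without.

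Levels are log2 intensities, given per array or as mean ± SD over n = 2 arrays. A level was read against 2 limits, since an array gives signal for genes without transcripts too. The first limit was the 95th percentile of the 1035 olfactory receptor probe sets, 7.15 on replicate 1 and 7.17 on replicate 2. The second was the same percentile of 33 probe sets of genes known from liver, retina, testis and other distant tissues, 8.10 and 8.19, and is stricter, because 14 of those 33 genes passed the first. Of the 49 replication genes, 47 lay above the first limit on both arrays and 45 above the second. Of all named genes, 67.3% passed the first and 49.7% the second. Differences are replicate 2 minus replicate 1, and they were counted for genes with an average over both arrays above 7.16, the average of the first limit, which held for 47 replication genes and 13577 genes in all. As there is 1 array on each side, no test was possible and no p-value is given. Levels of different genes are not ranked, because probes differ in how strongly they bind.

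Replication genes were lower on the replicate 2 array almost throughout, by a small amount. The median difference was -0.28, or 1.21-fold, against 0.00 over all 13577 genes, and 43 of 47 were lower there, where 48.8% of all genes were. At 1.3-fold or more, 17 of 47 were lower on replicate 2 (4.30% of all genes), and at 1.5-fold or more 4 of 47 were (1.91% of all genes). None reached 2-fold, which 0.368% of all genes did. The 4 genes past 1.5-fold were Pole, Tyms, Prim1 and Orc1, and Dbf4 lay just short of it at 1.499-fold. The central range of the 47 differences, from the 25th to the 75th percentile, ran from -0.43 to -0.11. Only Rpa3 was higher on replicate 2 by 1.3-fold or more, as 5.87% of all genes were, and Orc3, Rrm1 and Gins4 were higher by less. These cells were measured in bulk, so fewer cells in S phase and less RNA of these genes per cell cannot be told apart.

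**Figure D1:**
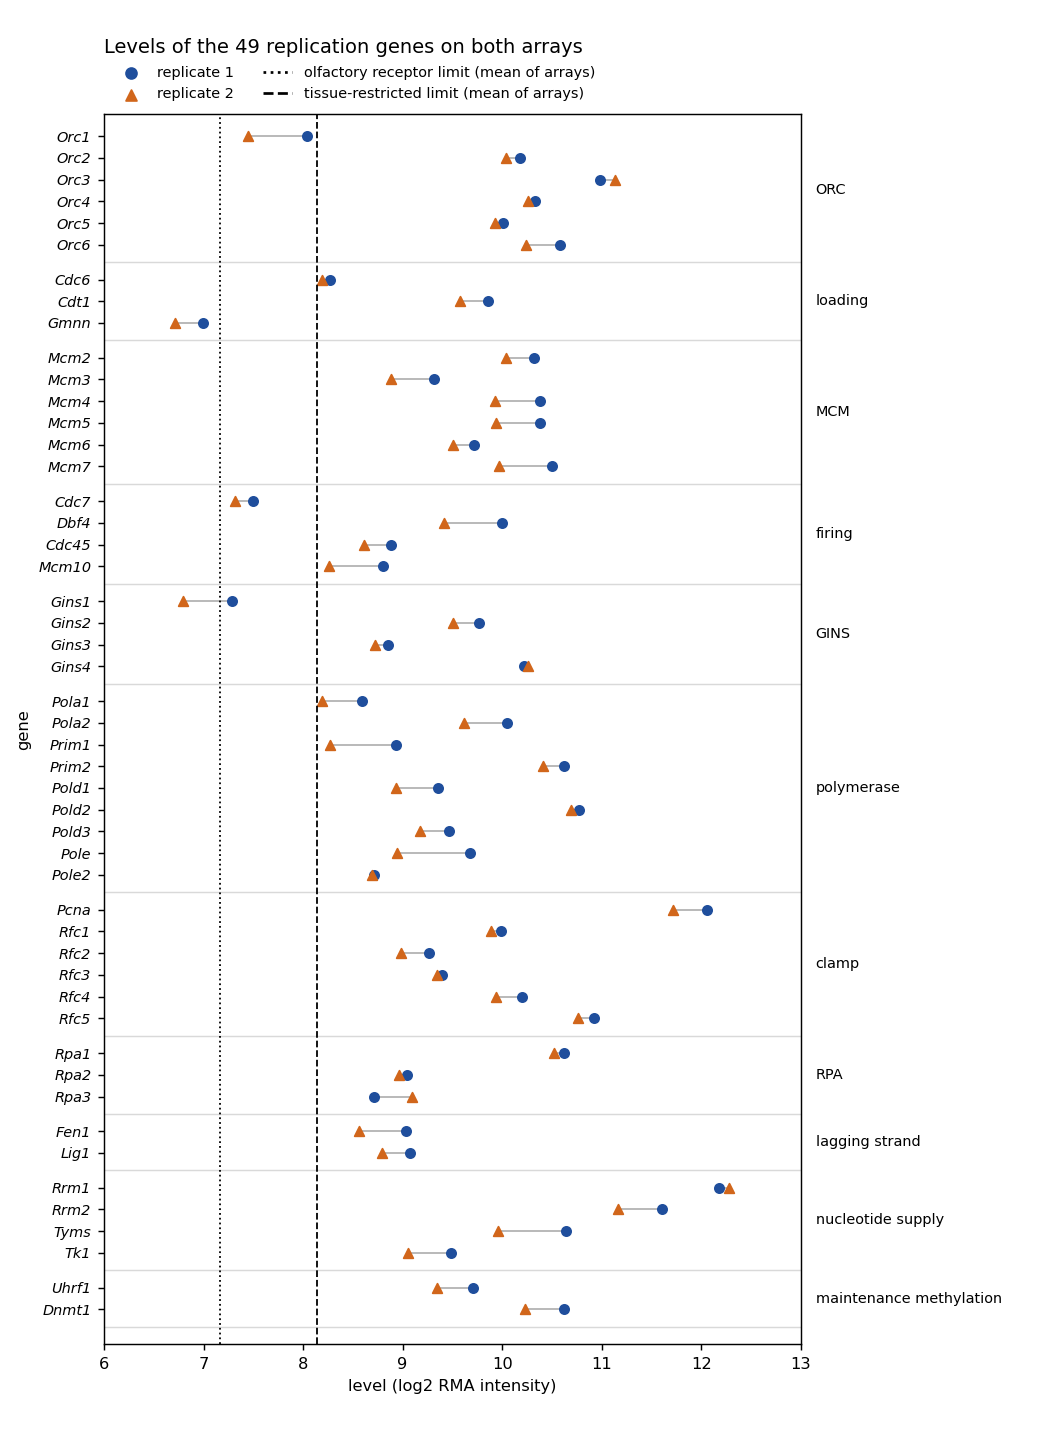
Level of each of the 49 genes on both arrays (log2 RMA intensity on the horizontal axis, genes on the vertical axis by complex or role), with circles for replicate 1, triangles for replicate 2 and vertical lines for both background limits. The triangle lies left of the circle in all genes but Orc3, Gins4, Rpa3 and Rrm1, and only Gmnn and Gins1 reach below the olfactory receptor limit.

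The 6 subunits of ORC, which mark origins, differed among themselves. Orc1, the subunit known to vary most over the cell cycle, was at 8.04 on replicate 1 and 7.44 on replicate 2, a 1.51-fold difference. Both of its values lie between the background limits, so the level itself is weakly supported. Orc6 was at 10.58 and 10.24. The core subunits differed little, with Orc2 at 10.18 and 10.04, Orc4 at 10.33 and 10.26, Orc5 at 10.01 and 9.93, and Orc3 higher on replicate 2 at 10.98 and 11.14. The median of the 6 differences was -0.11.

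Of the loading factors, Cdt1 was at 9.86 on replicate 1 and 9.58 on replicate 2. Cdc6, the ATPase that works with ORC, was at 8.27 and 8.19, which is above the stricter limit by 0.17 and by 0.01. Gmnn, the inhibitor of Cdt1, lay below the first limit on both arrays (6.99 and 6.71), so its probe set was not above background and its difference is not read. It was the only one of the 49 genes below that limit on both arrays.

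All 6 genes of the MCM hexamer, the motor of the helicase, passed both limits and were lower on replicate 2. Mcm7 differed most, with 10.51 on replicate 1 and 9.97 on replicate 2, or 1.45-fold. Mcm4 was at 10.38 and 9.92, Mcm5 at 10.38 and 9.94, and Mcm3 at 9.32 and 8.89. These 3 differed by nearly the same amount, between 1.35-fold and 1.37-fold. Mcm2 (10.32 and 10.04) and Mcm6 (9.71 and 9.50) differed by less, 1.21-fold and 1.16-fold. The hexamer holds each of these subunits in equal number, and their RNA differences spanned -0.54 to -0.21 with a median of -0.44.

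Among the genes that fire licensed origins, Dbf4, the activator of Cdc7 kinase, was at 10.00 on replicate 1 and 9.42 on replicate 2. Its partner Cdc7 was at 7.41 ± 0.13 over the 2 arrays, above the first limit only, and differed 1.14-fold. The activation factor Mcm10 was at 8.81 and 8.26, 1.46-fold apart, and Cdc45, which joins the helicase, at 8.89 and 8.61. The kinase and its activator thus differed by unequal amounts, with the kinase close to background.

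The GINS complex, which joins Cdc45 on the hexamer, was among the least different groups. Gins2 was at 9.77 and 9.51, Gins3 at 8.86 and 8.72, and Gins4 slightly higher on replicate 2 at 10.22 and 10.26. Gins1 was at 7.29 and 6.79, above the first limit on replicate 1 only, and with a mean below the level filter it enters no count of differences. The median of the other 3 was -0.14.

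All 9 polymerase and primase genes passed both limits and were lower on replicate 2, with a median of -0.40. On that array, Pola1 lay above the stricter limit by only 0.01 and Prim1 by only 0.09. Pole, the catalytic subunit of the leading strand polymerase epsilon, had the largest difference of the 47 genes, 9.68 against 8.94 or 1.66-fold. Its second subunit Pole2 was at 8.71 and 8.69, one of the smallest differences. The genes of one enzyme thus differed by unequal amounts, Pole most of all the genes and Pole2 hardly at all.

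Primase subunits also differed by unequal amounts, and those of polymerase alpha by similar ones. Prim1, the catalytic primase subunit, was at 8.93 and 8.27 (1.58-fold), and its partner Prim2 at 10.62 and 10.41 (1.15-fold). Pola1, the catalytic subunit of polymerase alpha, was at 8.59 and 8.19, and its accessory subunit Pola2 at 10.05 and 9.61, so these differed alike, 1.32-fold and 1.35-fold. In polymerase delta, which copies the lagging strand, catalytic Pold1 was at 9.35 and 8.93, Pold3 at 9.47 and 9.18, and Pold2 at 10.77 and 10.70. Among the genes of this group, the catalytic subunit differed more than its partners in epsilon, delta and primase but not in alpha, and this was not tested.

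**Figure D2:**
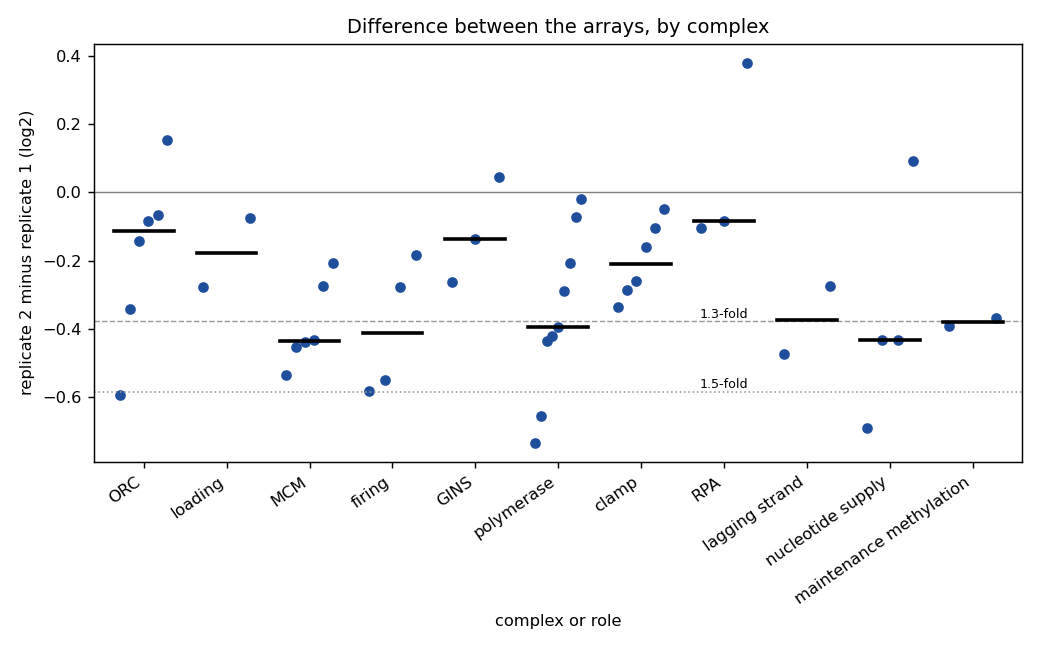
Difference of each of the 47 genes above the level filter (replicate 2 minus replicate 1, log2, vertical axis) by complex or role (horizontal axis), with a point for each gene and a bar for the median. All 11 medians lie below 0, from -0.44 in the MCM hexamer to -0.08 in RPA, and the points within the polymerase group span -0.73 to -0.02.

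The sliding clamp and its loader passed both limits with all 6 genes. Pcna, the clamp itself, was at 12.06 on replicate 1 and 11.72 on replicate 2 (1.26-fold), and its 2 probe sets differed by -0.32 and -0.35. The loader subunits differed by less. Rfc1, the large subunit, was at 9.99 and 9.88, Rfc2 at 9.27 and 8.98, Rfc3 at 9.40 and 9.35, Rfc4 at 10.20 and 9.94, and Rfc5 at 10.92 and 10.76. None of the 5 loader genes reached 1.3-fold, and all were lower on replicate 2.

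RPA, which coats unpaired DNA in repair as well as in replication, had the median nearest to 0, -0.08, though its 3 genes did not go the same way. Rpa1 was at 10.63 and 10.52 and Rpa2 at 9.04 and 8.96. Rpa3, the smallest subunit, was higher on replicate 2, with 8.71 and 9.09, and its 2 probe sets differed by 0.43 and 0.33 in the same direction. Of the genes that finish Okazaki fragments, the flap nuclease Fen1 was at 9.04 and 8.56 (1.39-fold) and the ligase Lig1 at 9.07 and 8.80 (1.21-fold).

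Nucleotide supply was split within one enzyme. Rrm2, the small subunit of ribonucleotide reductase, whose protein is known to be made in S phase and destroyed later, was at 11.60 on replicate 1 and 11.17 on replicate 2. Rrm1, the large subunit, whose protein is known to be longer lived, was at 12.18 and 12.27 and thus slightly higher on replicate 2. Those lifetimes concern the proteins, while the arrays measured RNA only. Thymidylate synthase (Tyms) was at 10.64 and 9.95, 1.61-fold apart and the second largest difference. Thymidine kinase (Tk1), the salvage enzyme, was at 9.49 and 9.05, and its 2 probe sets differed by -0.51 and -0.36.

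The genes that copy methylation onto new strands differed almost equally. Uhrf1, which recognises DNA methylated on one strand only and recruits the methyltransferase, was at 9.71 and 9.34. Dnmt1, the maintenance methyltransferase, was at 10.62 and 10.23. Both passed both limits, and they differed 1.29-fold and 1.31-fold.

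The differences were spread over the range of levels. Across the 47 genes, the correlation of mean level with difference was 0.185 (Pearson, genes that share the same arrays), and the 17 genes lower by 1.3-fold or more had a median level of 9.31 against 9.83 in the others.

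**Figure D3:**
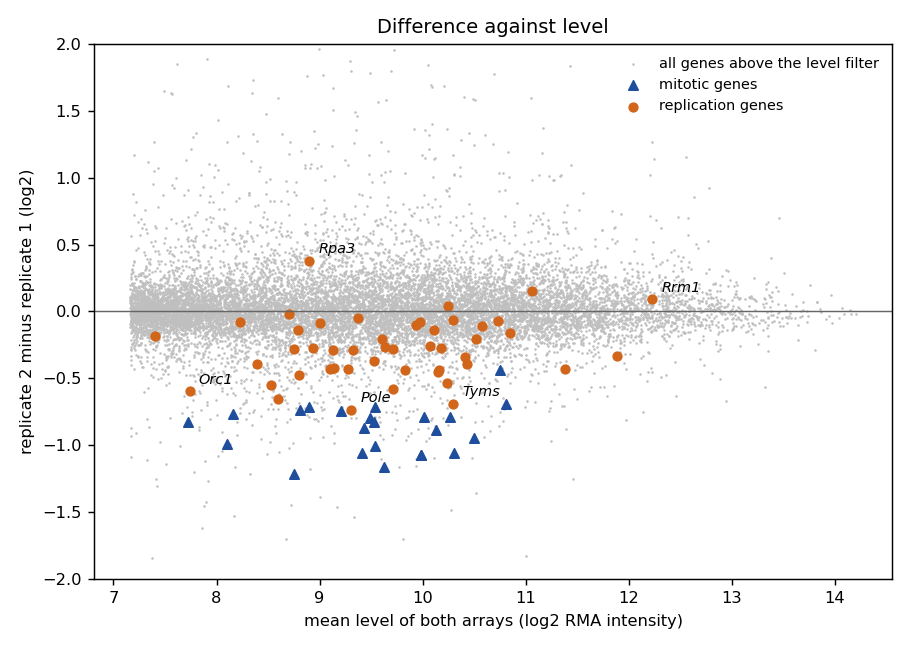
Difference between the arrays (replicate 2 minus replicate 1, log2) against the mean level of both arrays (log2 RMA intensity), with grey dots for all 13577 genes above the level filter, circles for the 47 replication genes and triangles for 23 mitotic genes; 27 grey genes lie beyond the vertical axis. Most circles lie below 0, but Orc3 and Rrm1, which are among those at the highest levels, lie above it. Most triangles lie lower than the circles.

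Genes of the same pathway that were not among the 49 showed the same lean. The list was chosen with earlier results of these data known, so it is not independent support. Of 34 other origin and fork genes, 33 passed the level filter, 28 of them were lower on replicate 2, 9 by at least 1.3-fold, and the median was -0.25. Over all genes, the shares were 48.8% and 4.30%. The stricter limit was passed on both arrays by 25 of the 34. Clspn, the adaptor of the replication checkpoint, was at 8.01 and 7.54, below that limit on both arrays. Chaf1a, a subunit of the histone chaperone CAF-1, was at 9.26 and 8.96. The topoisomerase Top2a, which also acts in mitosis, was at 10.67 and 9.82. Of 3 small accessory subunits of the replicative polymerases, Pole3 differed by 0.01 and the other two were higher on replicate 2. These were Pold4 at 10.66 ± 0.29, 1.34-fold higher on replicate 2 and so as far from 0 as Pold1 but on the other side, and Pole4 at 10.66 ± 0.19, 1.20-fold higher there, and all 3 genes were named after their values were seen.

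Other genes of nucleotide metabolism leaned less. Of 17 measured, 11 were lower on replicate 2 and 2 by at least 1.3-fold, with a median of -0.07. Among all genes, 48.8% and 4.30% were. The dUTPase gene Dut was higher on replicate 2 (8.87 and 9.18). This list includes purine and pyrimidine synthesis genes that cells also use for RNA.

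The G1/S control genes were near 0 as a group, with a median of -0.05. Of 27, 16 were lower on replicate 2, 5 by at least 1.3-fold and 2 by at least 1.5-fold. Among all genes, 48.8%, 4.30% and 1.91% were. E2f1, an activator of the E2F family, was at 10.35 and 10.36, cyclin D1 (Ccnd1) at 12.72 and 12.81 and Cdk2 at 10.06 and 9.92. Cyclin E1 (Ccne1), which drives entry into S phase, was at 10.88 and 10.61. The 5 genes past 1.3-fold were the atypical E2F repressors E2f8 at 9.39 and 8.44 (1.93-fold) and E2f7 at 9.75 and 9.21, cyclin A2 (Ccna2) at 11.17 and 10.31, cyclin E2 (Ccne2) at 10.10 and 9.68, and Fbxo5, an inhibitor of the anaphase-promoting complex, with a difference of -0.48. These 5 genes were named after their values were seen.

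Mitotic genes differed more than replication genes on these arrays. All 23 measured were lower on replicate 2, 22 by at least 1.5-fold and 7 by at least 2-fold, and their median was -0.83. Over all genes, the shares were 48.8%, 1.91% and 0.368%. The range of the mitotic genes, -1.21 to -0.44, overlapped that of the replication genes, -0.73 to 0.38, and 10 of the 47 replication genes lay within it. No replication gene reached the mitotic median, and 19 of 23 mitotic genes lay below Pole, the lowest replication gene. The 7 past 2-fold were Mki67, Plk1, Bub1, Cenpe, Kif20a, Kif23 and Prc1, with Mki67, the proliferation marker, at 10.52 and 9.45 and Cenpe, a kinetochore motor, at 9.36 and 8.15. The difference between the lists was not tested, since each array is a single sample. Housekeeping genes stood near 0, with a median of -0.03 over 10 genes and a range of -0.23 to 0.08. Of the 10, 7 were lower on replicate 2, against 48.8% of all genes. Actb was at 14.22 and 14.20 and Hprt at 11.57 and 11.57.

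**Figure D4:**
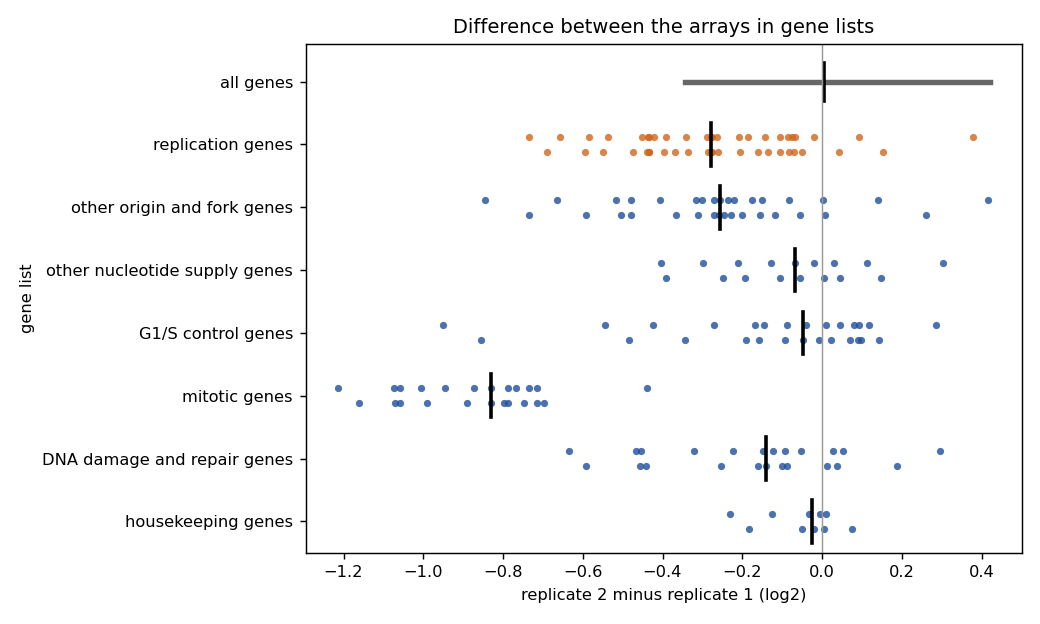
Difference between the arrays (replicate 2 minus replicate 1, log2, horizontal axis) for gene lists (vertical axis), with a point for each gene above the level filter and a bar for the list median; the grey line for all genes runs from the 5th to the 95th percentile, -0.34 to 0.42. The replication genes (median -0.28) lie between the housekeeping genes (-0.03) and the mitotic genes (-0.83).

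Markers of the cells in the culture were read beside these differences. All 10 FRC markers passed the first limit and 8 the second, Pdpn at 12.60 and 12.73 and Pdgfrb at 12.81 and 13.11. Their summed intensity, on the linear scale, was 34087 on replicate 1 and 42475 on replicate 2. On replicate 2, 8 of the 10 were higher, as were 6948 of all 13577 genes. Col3a1 was higher there by more than 2-fold, at 10.05 and 11.30. The other 2 FRC markers, named after their values were seen, were lower on replicate 2. These were the lymphocyte survival cytokine Il7 at 8.66 and 7.74 and the chemokine Ccl19 at 8.17 and 7.85. Of 13 leukocyte markers, 5 were above the first limit on both arrays and Cd68 (9.09 and 8.96) alone above the second, with summed intensities of 2010 and 2138. The pan-leukocyte gene Ptprc was below the first limit on both arrays (6.41 and 6.47), and the myeloid lysozyme gene Lyz2 was at 7.12, below that limit, on replicate 1 and at 8.43 on replicate 2. Of 8 endothelial markers, 4 passed the first limit and 0 the second, with Pecam1 at 7.22 and 7.13 and summed intensities of 1431 and 1471. Behind these sums, and named after their values were seen, Emcn (difference 0.76) and Tek (0.76) were higher on replicate 2 and Flt4 (-0.61) and Cdh5 (-0.52) lower. The part of these markers in the differences of the replication genes was not tested.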

How the data were processed

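The values deposited are linear intensities, 1 for each probe set on each array. Per the submitters' processing notes they were produced by RMA, the robust multi-array average method. RMA corrects background, equalises the distributions of arrays processed together and compresses differences at low signal, so a change in total RNA would not appear. The medians were 286.0 and 285.7. Intensities were converted to log2 here. Of 24679 probe sets, 21354 carried 1 gene in the platform annotation and the others were not used. Probe sets of a gene were averaged, which concerned 3 of the 49 genes. All 49 identifiers were found in RefSeq GRCm38.p6 with the same symbol. Promoters are from RefSeq, GRCm38.p6. Analysis used Python 3.11.15, pandas 2.3.3 and statsmodels 0.14.6. The counting at 1.5-fold was run on simulated data with planted 2-fold differences. That run checks the code and not the counts given here, and counts at 1.3-fold were not simulated.

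The genes and lists were chosen with earlier results of these data known. All 49 genes are named. Of the other lists, a fixed set and every gene past 2-fold are named, and other names are marked where they occur. Of the fixed names, Ccnb1 and Cdkn1a had no probe set of their own, 1 is not reported here, and Chek1 is given in the closing section. The 1.3-fold threshold and the count of any lower value were chosen after seeing the data. Alternatives were other limits, each array alone, the highest or lowest probe set, quantile normalisation, removal of a lowess trend (span 0.3), other level filters and log2(intensity + 64). The number of arrays, 2, limits the precision.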

Additional observations from a re-analysis of the deposited data

How the results depend on the processing

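The count of genes above the background limit, 47, was 45 to 48 under the 7 alternatives, with 48 on replicate 1 alone and 47 on replicate 2 alone. The median difference of -0.28 lay between -0.30 and -0.26 under the 7 alternatives. The count lower on replicate 2, 43, was 41 to 45, and that lower by at least 1.3-fold 15 to 18, against 17, with 45 to 49 genes tested. The shares of all genes under these alternatives were 48.3% to 52.1% and 3.36% to 4.7%. The count lower by at least 1.5-fold, 4, was 2 on the log2(intensity + 64) scale, which by construction shrinks differences of dim genes, with Orc1 at -0.46 and Prim1 at -0.56, and 3 to 5 under the others. No replication gene reached 2-fold under any of the alternatives. Of all genes, 1.41% to 2.07% were lower by at least 1.5-fold and 0.25% to 0.386% by at least 2-fold. All 77 medians of complexes under alternatives were below 0, and 2 of them moved by more than the median SD between the arrays, 0.078. These were the loading factors (-0.28 with no level filter, which adds Gmnn) and the firing genes (-0.55 with the stricter level filter, which drops Cdc7). With 1 array on each side, no difference has a replicate check.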

Other observations

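Genes of the DNA damage checkpoint and of repair differed in part. Of 23 measured, 17 were lower on replicate 2, 6 by at least 1.3-fold and 2 by at least 1.5-fold, with a median of -0.14. Among all genes, 48.8%, 4.30% and 1.91% were. The stricter limit was passed on both arrays by 16 of the 23, but by none of the 6 past 1.3-fold. The checkpoint kinase Chek1 was at 8.82 on replicate 1 and 8.57 on replicate 2. The 2 genes past 1.5-fold, named after their values were seen, were Fancd2 of the Fanconi pathway (7.68 ± 0.45, n = 2) and the helicase gene Blm (8.35 and 7.75). Fancd2 was below the stricter limit on both arrays and Blm on replicate 2.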
